A study of Mus musculus with 12 samples.

Results

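The 3 untreated libraries of a 12-library time course are described here: mouse embryonic stem cells in which the FGF receptors were inhibited and an inducible RAF kinase had not been switched on. They were taken by their treatment label, 1 from each of clones a, b and c. The other 9 libraries are the same clones after 1, 2 and 4 h of 250 nM 4-hydroxytamoxifen (4OHT). All 12 came from E14tg2a, a male line on a 129SV background. Its cells held a cRAF-ERT2 construct, that is, a kinase fused to a tamoxifen-responsive receptor domain. All were grown in serum with LIF and 2 µM Chir99021, an inhibitor of the kinase GSK3. For the 24 h before treatment the medium was serum, LIF and the FGF receptor blocker PD173074 at 250 nM, and Chir99021 is not named for that step. Ethynyl uridine, a nucleoside that enters new RNA, was present at 5 mM for the last 15 min before RNA isolation in every library. All 12 libraries share the receptor inhibition, so none shows these cells with active FGF receptors. The series design gives the 3 treatment times, whereas the treatment protocol of the samples names 0 h and 2 h alone. No vehicle-treated library was analysed here, and the promoter of the construct is not given in the sources used here.

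Mouse embryonic stem cells are kept undifferentiated by LIF, which signals through the receptor chains LIFR and gp130 to STAT3. They also make FGF4, which acts through FGF receptors, RAS, RAF, MEK and ERK and prepares them to leave the naive state. ERK switches on immediate-early transcription factors and, with some delay, inhibitors of its own pathway such as Sprouty proteins and dual-specificity phosphatases. Levels of such genes are commonly read as a record of ERK activity.

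The untreated libraries held 30173455, 24213641 and 27170089 counts in clones a, b and c, so that 1 count stood for 0.0308, 0.0398 and 0.0346 CPM, counts relative to a TMM-scaled library size. Of 25897 gene symbols, 11890 (45.9%) reached 1 CPM in all 3 clones and 7641 had no count in any of them. Averaged over the clones, 12253 symbols reached 1 CPM, 8587 reached 10 and 2419 reached 100 CPM. Of the symbols averaging at least 1 CPM, 12060 were protein-coding. The clones had Spearman correlations of 0.990 to 0.992 with each other over 12253 genes, which are not independent replicates and share library preparation. The median gene had a highest clone 1.22-fold over its lowest. Its coefficient of variation was 10.3%, where counting alone would give 3.58%. With 1 library per clone there is no test within the untreated state. P-values below measure the spread between libraries, and the labels do not say whether the clones were derived separately.

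Per kilobase of exon, the highest protein-coding genes were those of protein synthesis, folding and the cytoskeleton. Eef1a1, a translation elongation factor, stood at 2207 ± 108 CPM per kb (mean ± SD, n = 3 clones here and below) and Hsp90ab1, a chaperone, at 1923 ± 38.1 CPM per kb. Actb, cytoplasmic actin, followed with 1416 ± 126 CPM per kb and Rpl4, a ribosomal protein, with 1359 ± 28.6 CPM per kb. Dppa5a, an RNA-binding protein typical of pluripotent cells, had 1053 ± 173 CPM per kb, and Trim28, a corepressor that silences retroviral elements, 858 ± 113 CPM per kb. Both belong to the general pluripotency list and stood among the 15 highest protein-coding genes per kb. Some ranks are uncertain, because the strand setting of the counting is not given in the sources used here. Among the 15 highest, exons of Ccnb1ip1 overlap the RNase P RNA gene Rpph1, those of Ccdc107 overlap the RNase MRP RNA gene Rmrp, and all exon bases of Hist2h2bb are shared with other genes. More generally, of 243 protein-coding genes that share at least 90% of their exon bases with another gene, 49.4% had no untreated count, against 19.95% of 21513 others.

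The symbol with the largest share of the counts, length aside, was Lars2, the mitochondrial leucyl-tRNA synthetase, with 4990, 15005 and 10033 CPM in clones a, b and c. Kpna1, a nuclear import receptor, was next with 3620, 9925 and 6430 CPM. Both ran in the order b, c, a, at a range of 3.01-fold and 2.74-fold, where the median gene had 1.22-fold. The other genes that track Lars2 over the 12 libraries at r of at least 0.9 numbered 17, a set chosen after the values were seen, and 16 of them had this order. They included Gphn (1453, 4624 and 2855 CPM), Camk1d (1260, 3999 and 2146 CPM), Cd44 and Fgfr2. With Lars2 itself, the set held 1.37%, 3.94% and 2.60% of all counts in clones a, b and c. None of its members passed the clone test or the test against treated cells. Lars2 itself spanned 876 to 27450 CPM over the treated libraries. The source of these counts was not tested.

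The pluripotency network was fully present in all 3 clones. All 16 general pluripotency genes and all 20 naive genes averaged at least 1 CPM, with medians of 197 and 54.2 CPM per kb, where the median of the 12253 genes was 5.97 CPM per kb. Pou5f1, the OCT4 gene and the central regulator of pluripotency, had 627, 780 and 798 CPM in clones a, b and c. Nanog, its homeobox partner, had 655, 717 and 725 CPM. Sox2, which binds DNA together with OCT4, had 403, 364 and 353 CPM. The 3 clones thus lay within 2-fold for each of the 3 core factors, with clone a lowest for Pou5f1 and Nanog and highest for Sox2. The general list had a median range of 1.26-fold, where the median gene had 1.22-fold.

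Among naive factors, which set the pre-implantation state, Tfcp2l1 had 1868, 1266 and 2309 CPM in clones a, b and c. Esrrb, an orphan nuclear receptor downstream of GSK3 inhibition, had 645, 722 and 762 CPM. Zfp42, the REX1 gene, had 601, 696 and 570 CPM. These 3 genes stood at or above the 97.9th percentile of expressed genes per kb. The Krüppel-like factors, targets of LIF and FGF signalling, were lower per kb, with Klf4 at 70.7 ± 15.9, Klf2 at 58.8 ± 5.53 and Klf5 at 32.7 ± 2.53 CPM per kb, against 117 ± 9.82 CPM per kb for Esrrb. Klf4 had 162, 257 and 227 CPM and Klf2 104, 102 and 120 CPM, so that clone a or b was the lowest. Tbx3, a T-box factor downstream of LIF, had 120, 139 and 175 CPM and Prdm14, a repressor of FGF signalling and DNA methylation, 57.9, 54.5 and 59.4 CPM. Dppa3, a maternal-effect factor, had 8.85, 7.33 and 3.84 CPM, with clone c lowest. Of the 36 genes of both lists, 2 differed by at least 2-fold between clones, Dppa3 and Utf1.

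**Figure D1:**
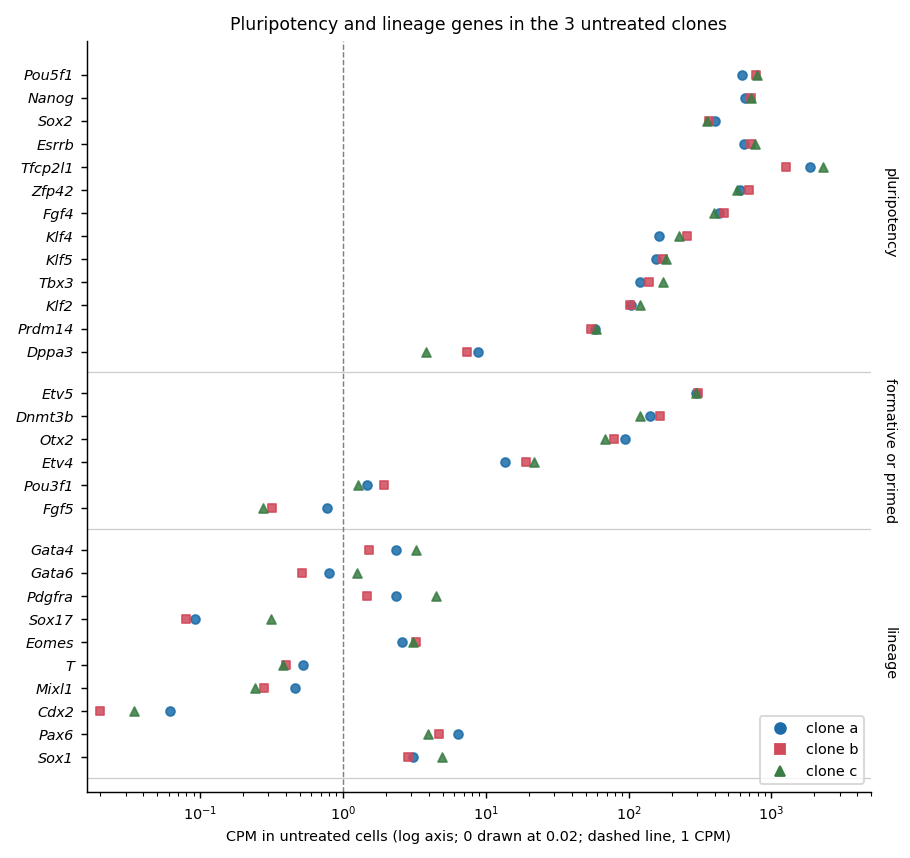
Level of pluripotency, formative and lineage genes in the 3 untreated libraries. The horizontal axis is CPM on a log scale, each symbol is 1 clone, and the dashed line marks 1 CPM; Pou5f1, Nanog, Sox2 and Esrrb lie between 353 and 798 CPM, whereas Gata6, Sox17, T, Mixl1 and Cdx2 lie at or under 1.25 CPM.

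Genes of the formative and primed epiblast, the states that follow the naive one, were split. Fgf5, a marker of the post-implantation epiblast, had 0.771, 0.318 and 0.277 CPM, and Pou3f1, the OCT6 gene, 1.48, 1.95 and 1.28 CPM. In contrast, Otx2, which drives exit from the naive state, had 94.4, 79.5 and 68.0 CPM. Dnmt3b, a de novo DNA methyltransferase, had 140, 166 and 120 CPM, and Etv5, an ETS factor, 299, 307 and 295 CPM. Per kb, Fgf5 (0.182 ± 0.110) and Pou3f1 (0.408 ± 0.0894) lay below the median expressed gene, and Otx2 (19.101 ± 3.14), Dnmt3b (27.8 ± 4.56) and Etv5 (73.2 ± 1.49 CPM per kb) above it. The list median was 2.89 CPM per kb over 17 genes.

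Defining regulators of other lineages were low, but not all genes on lineage lists were. For primitive endoderm, the extraembryonic lineage that FGF signalling induces, Gata6 had 0.802, 0.518 and 1.25 CPM, Gata4 2.34, 1.51 and 3.22 CPM and Sox17 0.0925, 0.0796 and 0.311 CPM. Of the basement membrane genes of the same list, some lay above the median expressed gene and one, Col4a2 (3.26 ± 1.56 CPM per kb), below it. Lama1, a laminin chain, had 411, 480 and 587 CPM (50.9 ± 9.13 CPM per kb) and Sparc, a matrix protein, 288, 242 and 383 CPM (80.3 ± 19.06 CPM per kb). Of 15 primitive streak and mesoderm genes 4 averaged at least 1 CPM, among them Kdr (3.53 ± 1.10 CPM), a VEGF receptor, and Eomes (2.98 ± 0.338 CPM), a T-box factor. Brachyury, the gene T, had 0.524, 0.398 and 0.381 CPM. The neural factors Pax6 (6.39, 4.70 and 3.94 CPM) and Sox1 (3.08, 2.87 and 4.95 CPM) were low but countable in every clone. They were among the 4 of 14 neural genes averaging at least 1 CPM, and the other members of these were higher. Ncam1 averaged 86.7 CPM and lay above the median expressed gene per kb, and Nes averaged 29.4 CPM and lay below it. The trophoblast regulator Cdx2 had 3 counts over the 3 libraries. Yet 6 of 15 trophoblast genes averaged at least 1 CPM, among them the keratin genes Krt8 (6.94, 15.4 and 10.2 CPM) and Krt18 (8.85, 12.4 and 9.13 CPM), which other epithelia also use. Of 10 germ line genes 8 did, with Tex19.1, which restrains retrotransposons, at 48.6, 47.4 and 43.2 CPM. In RNA from whole cultures, few cells with much of a transcript and many cells with little of it cannot be told apart.

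Other cell types were checked in the same way. Of 14 feeder fibroblast genes 4 averaged at least 1 CPM, and their summed level was 187, 195 and 318 CPM in clones a, b and c. Vim, an intermediate filament gene that stem cells also express, made up most of it with 161, 168 and 287 CPM. The defining collagen Col1a1 had 0.370, 0.159 and 0.450 CPM, and Postn no count, so these defining fibroblast genes were at or near 0. Of 13 genes of the two-cell-like state, a rare totipotent-like state of these cultures, 1 averaged at least 1 CPM. This was Zfp988 with 65.1 ± 15.7 CPM, while Zscan4d, a defining gene, had 0.125 ± 0.134 CPM. Hprt and Gapdh were named after their values were seen. Hprt, whose loss is the selected defect of the E14tg2a line, had 0.370, 0.438 and 0.242 CPM in clones a, b and c. Gapdh, by contrast a standard reference gene, had only 44.7, 54.7 and 46.2 CPM, and it has many processed pseudogenes that can share its reads.

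**Figure D2:**
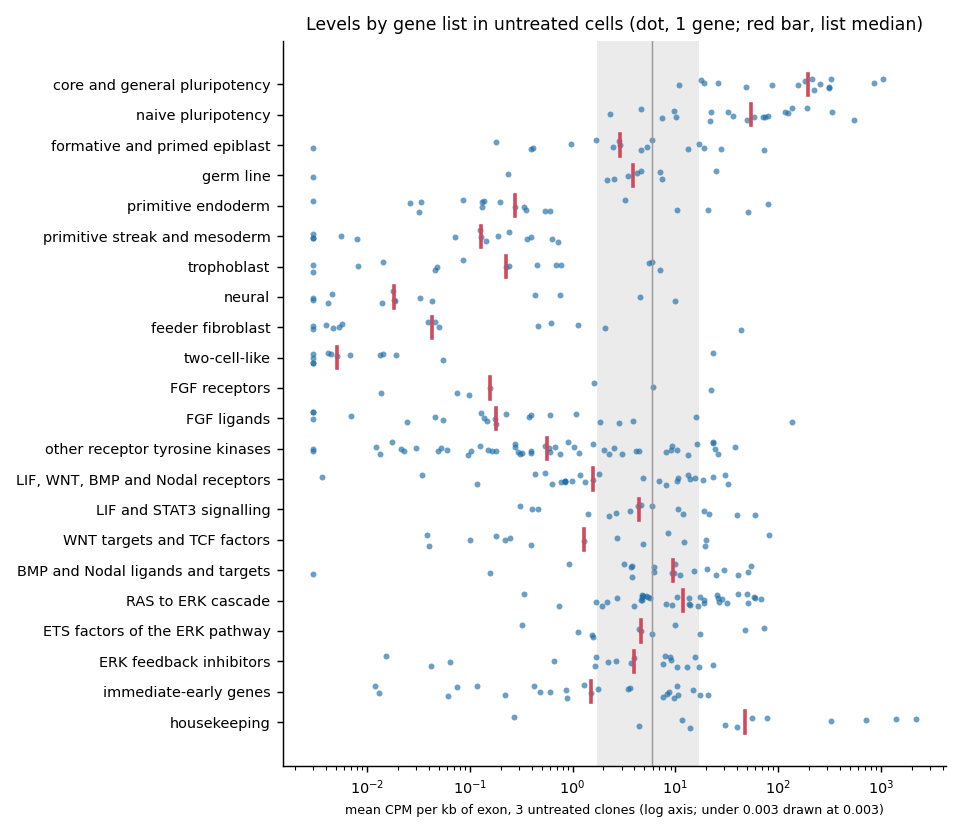
Level of each gene list in untreated cells. Each dot is 1 gene, placed on a log axis at its mean CPM per kb of exon over the 3 clones; red bars mark list medians, the grey band the middle 50% of genes averaging at least 1 CPM and the grey line their median of 5.97 CPM per kb. The pluripotency lists lie to the right of the band and most lineage genes to its left.

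FGF signalling components were unevenly expressed. Fgf4, the main autocrine ligand, had 427, 469 and 398 CPM in clones a, b and c and stood at 135 ± 11.2 CPM per kb, the highest of 22 ligand genes. The next, Fgf17, stood at 15.9 ± 1.45 CPM per kb, and 9 of the 22 averaged at least 1 CPM. Among the receptors, Fgfr1 had 54.6, 55.1 and 68.5 CPM and Fgfr2 136, 342 and 209 CPM. Per kb, Fgfr2 exceeded Fgfr1 in each clone, with 22.2 ± 10.1 against 6.01 ± 0.798 CPM per kb. Fgfr2 is one of the genes that track Lars2. In the 4 treated libraries with the lowest Lars2, at or under 2344 CPM, Fgfr2 was at 91.9 to 132 CPM, below all 3 untreated values. Fgfr3 (0.308, 0.398 and 0.8995 CPM) and Fgfr4 (0.185, 0.159 and 0.692 CPM) stayed under 1 CPM, with clone c highest for both. Fgfrl1, a receptor without a kinase domain, had 4.01, 5.06 and 4.36 CPM. Fgfr1 and Fgfr2 were thus the 2 receptor genes with a kinase domain above 1 CPM.

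Other receptor tyrosine kinases were also present. Of 50 genes 38 averaged at least 1 CPM. Epha2, an ephrin receptor, was highest with 38.5 ± 4.72 CPM per kb, followed by Ptk7, a WNT-related pseudokinase (25.8 ± 4.87), Tyro3 (24.5 ± 1.94) and Kit, the stem cell factor receptor (23.3 ± 2.995 CPM per kb). The LIF receptor chains were nearly level across clones, at a range of 1.02-fold for Lifr and 1.07-fold for Il6st. Lifr had 333, 329 and 327 CPM and Il6st, the gp130 gene, 212, 207 and 198 CPM. Stat3, their effector, had 165, 176 and 206 CPM, and Socs3, a STAT3 target that feeds back on the receptor, 91.3, 145 and 106 CPM. Of the 27 LIF, WNT, BMP and Nodal receptor genes 24 averaged at least 1 CPM, with Fzd5, a WNT receptor, at 208, 240 and 230 CPM.

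WNT, BMP and Nodal genes were listed because of the medium, since GSK3 inhibition stabilises the WNT effector beta-catenin and serum contains BMP-like activity. Of 15 WNT targets and TCF factors 9 averaged at least 1 CPM. Ctnnb1, the beta-catenin gene, had 431, 387 and 451 CPM in clones a, b and c, and Tcf7l1, a repressor that it relieves, 49.9, 41.6 and 50.7 CPM. The target genes were less even, with Axin2 at 3.95, 10.4 and 7.16 CPM and Notum, a WNT deacylase, at 32.5, 68.8 and 38.9 CPM. Clone a was lowest and clone b highest for both of these targets. Over the 9 members averaging at least 1 CPM, clone a was highest for 1, clone b for 3 and clone c for 5. All members averaging under 1 CPM were WNT targets. Of 20 BMP and Nodal genes 18 averaged at least 1 CPM. Gdf3, a ligand of the family, had 126, 137 and 131 CPM and Nodal 75.1, 96.2 and 85.6 CPM.

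Genes of the RAS to ERK cascade were all detected. All 36 genes of the list reached 1 CPM in all 3 clones, and none differed by 2-fold between clones. Of the RAS genes, Nras had 237, 205 and 213 CPM in clones a, b and c. Per kb it stood at 41.0 ± 3.16 CPM per kb, above Hras, which was named after its values were seen (13.5 ± 0.796 CPM per kb). Of the kinases that RAS activates, Araf had 59.3, 60.3 and 64.0 CPM and Braf 77.2, 74.4 and 65.6 CPM. Per kb, Araf (9.36 ± 0.382) lay above Braf (5.22 ± 0.439 CPM per kb) in every clone. Map2k1, the MEK1 gene, stood at 67.9 ± 2.94 CPM per kb against 10.5 ± 1.88 for Map2k2, the MEK2 gene. The order was the same per kb of the longest coding transcript (Map2k1 94.5 against Map2k2 24.6 CPM per kb). Mapk3, the ERK1 gene, had 67.4, 73.8 and 73.0 CPM and stood at 31.6 ± 1.54 CPM per kb.

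**Figure D3:**
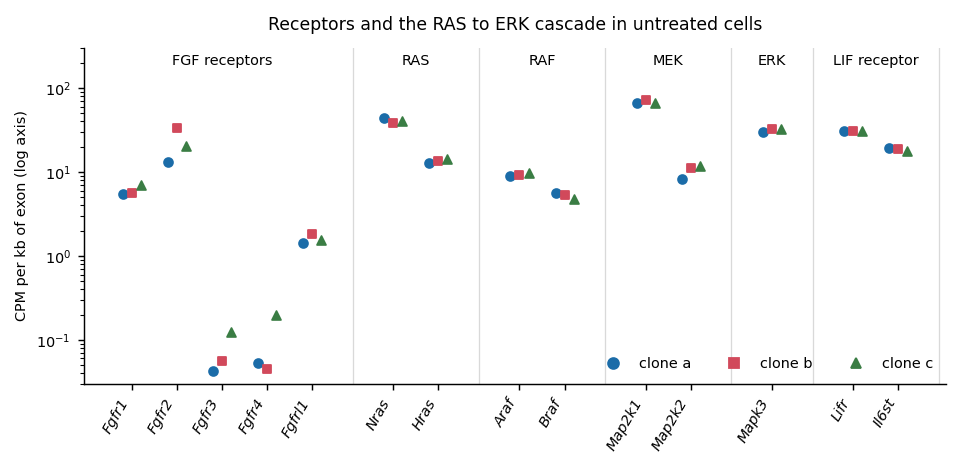
Receptors and cascade kinases in untreated cells. The vertical axis is CPM per kb of exon on a log scale and each symbol is 1 clone; Nras lies above Hras, Araf above Braf and Map2k1 above Map2k2 in every clone, and Fgfr3 and Fgfr4 lie under 0.2 CPM per kb.

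With the receptor inhibited and RAF not induced, most targets of ERK were still detected, and many were lower than in treated cells. Untreated cells were compared with the mean of the 3 treated times, and log2 differences are untreated minus treated, so negative values mean lower in untreated cells. Of 19 ERK feedback inhibitors 16 averaged at least 1 CPM, with a median of 3.94 CPM per kb, and of 25 immediate-early genes 20 did, with a median of 1.504 CPM per kb. Dusp6, an ERK phosphatase (chr10:99263231-99267489, plus strand, GRCm38), had 48.9, 53.6 and 56.3 CPM untreated, in the same clone order, against 138 to 400 CPM in the 9 treated libraries (median 291). Spry4, a Sprouty inhibitor, had 43.1, 51.0 and 54.6 CPM untreated, against 254 to 1054 CPM treated (median 625). Spry2 had 47.1, 44.3 and 53.5 CPM untreated, against 91.0 to 174 CPM treated (median 120). In all 3 the groups did not overlap, as in 10.9% of all genes tested, and the clones lay within 2-fold before treatment. The differences were −2.27 ± 0.15 for Dusp6 (SE, edgeR adjusted p = 7.57e-05), −3.66 ± 0.44 for Spry4 (adjusted p = 0.0014) and −1.38 ± 0.12 for Spry2 (edgeR adjusted p = 0.000696).

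Immediate-early genes are the first to respond to ERK. Egr1, a zinc finger factor, had 9.28, 5.93 and 8.79 CPM untreated, against 32.6 to 456 CPM treated (median 162). Fos, a subunit of AP-1, had 3.15, 3.42 and 2.59 CPM untreated, against 8.76 to 99.9 CPM treated (median 33.7). Myc, a growth regulator that LIF also sustains, had 21.5, 26.7 and 31.1 CPM untreated, against 75.2 to 176 CPM treated (median 106). Again no untreated library reached the lowest treated one. The differences were −4.40 ± 0.61 for Egr1 (edgeR adjusted p = 0.00248), −3.69 ± 0.48 for Fos (adjusted p = 0.00193) and −2.15 ± 0.24 for Myc (edgeR adjusted p = 0.00107). Etv4, an ETS factor, had 13.7, 19.0 and 21.9 CPM untreated, against 20.5 to 130 CPM treated, and these groups overlapped, with a difference of −1.53 ± 0.19 (edgeR adjusted p = 0.00146). Etv5 stood at 299, 307 and 295 CPM untreated against 356 to 485 CPM treated (−0.47 ± 0.07, edgeR adjusted p = 0.00393). Other feedback genes did not pass. Dusp9 had 40.5, 45.4 and 40.0 CPM untreated, against 40.3 to 52.0 CPM treated (−0.14 ± 0.09, edgeR adjusted p = 0.294), and Spred2 39.7, 42.8 and 42.9 CPM untreated, against 38.9 to 65.6 CPM treated (−0.13 ± 0.10, adjusted p = 0.36).

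Of the 19 feedback inhibitors, 12 were lower in untreated cells and none higher, and of the 25 immediate-early genes, 18 were lower and none higher, where 12.2% of the 14185 genes tested were lower and 9.78% higher. The list medians were −0.80 and −1.87 on the log2 scale, against 0.02 over all genes tested. Both lists consist of known responders to ERK, the pathway that the treatment switches on. Without the untreated library of clone a, of b or of c, the test left 10, 10 and 11 of the 12 feedback calls and 12, 13 and 14 of the 18 immediate-early calls. The 9 treated libraries differ between clones, and leaving out clone b at all times left 7 and 5 of these calls. Without clone c at all times, 1 gene of all those tested was past the threshold, Dusp6, and 2889 were at an unadjusted p under 0.05, so every other call against treated cells given here was lost without that clone. The fits that left out libraries had no term for clone. In direction, all 12 feedback and all 18 immediate-early calls were the same within each of the 3 clones. The calls for Dusp6, Spry4, Spry2, Egr1, Fos, Myc, Etv4 and Etv5 held without clone b and without any single untreated library. Of the genes named below as higher or lower, Prdm14, Fbxo15, Id2, Id1, Id3, Bmp4, Epha2, Kit, Dusp5, Egr2, Nlrp9c, Rgma, Rasgef1a and Ccl20 also held without clone b, and Srf, Zfp36, Fgf4, Tbx3, Klf5, Zfp42, Nanog, Pou5f1, Pim1, Pim3, Il6st, Araf, Rasa2, Gpr139, Serpina3i, Kcnk3, Egr3, Cdx2, Nppb, Lor, Phlda1, Actb, Tubb5, Rplp0 and Ppia were lost.

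**Figure D4:**
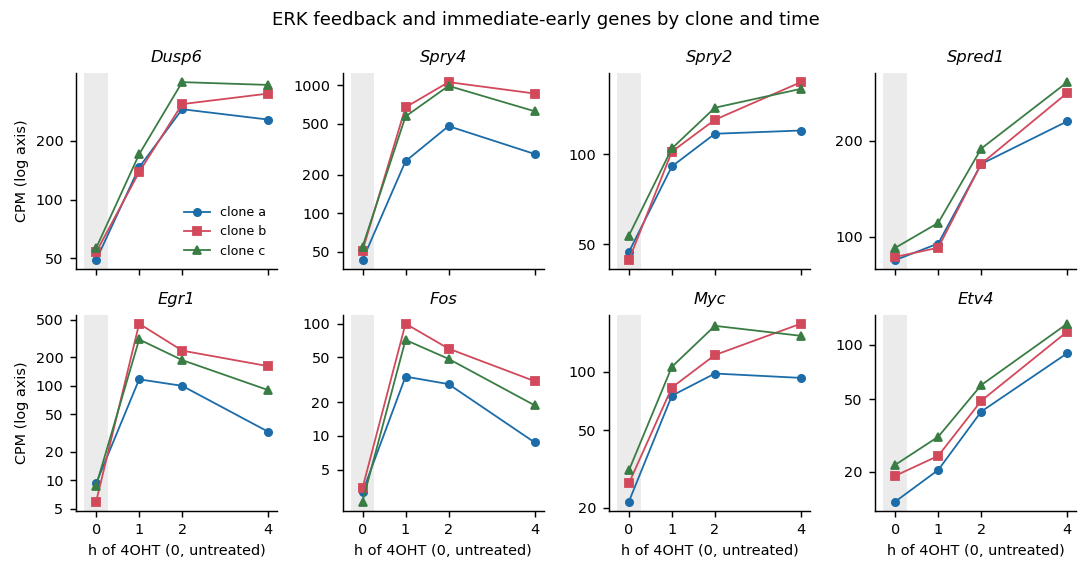
ERK feedback and immediate-early genes in all 12 libraries. Each panel is 1 gene, with h of 4OHT on the horizontal axis, CPM on a log vertical axis and 1 line per clone; the shaded untreated values of the 3 clones lie, except for Etv4, below every treated value.

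The SRF pathway is one route by which ERK reaches immediate-early genes, through ternary complex factors at the CArG box. RefSeq promoter windows (GRCm38.p6, 250 bases before to 50 after a start) were found for 34 of the 44 feedback and immediate-early genes, and 4 of these genes held a CArG box on either strand. Over all promoters, 1.81% of genes and 1.63% of 32851 windows did. Of the 41 windows of the 34 genes, 7 held a match. For each of the 4 genes 1 window with a match is shown, with the motif in capitals. Members without a window and bases outside the windows were not searched.
Zfp36, chr7:28379179-28379478, minus strand: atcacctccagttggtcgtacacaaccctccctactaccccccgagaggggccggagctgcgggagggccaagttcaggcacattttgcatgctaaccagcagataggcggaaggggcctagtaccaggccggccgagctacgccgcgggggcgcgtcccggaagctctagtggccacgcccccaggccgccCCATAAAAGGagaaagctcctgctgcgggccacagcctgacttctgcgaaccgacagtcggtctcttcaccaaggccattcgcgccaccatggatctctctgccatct
Egr2, chr10:67537316-67537615, plus strand: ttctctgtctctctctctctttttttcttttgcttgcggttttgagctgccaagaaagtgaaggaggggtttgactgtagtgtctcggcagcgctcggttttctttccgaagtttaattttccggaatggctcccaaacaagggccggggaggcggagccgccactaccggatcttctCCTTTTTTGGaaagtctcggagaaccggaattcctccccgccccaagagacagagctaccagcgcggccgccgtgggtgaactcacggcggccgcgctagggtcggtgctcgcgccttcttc
Srf, chr17:46556113-46556412, minus strand: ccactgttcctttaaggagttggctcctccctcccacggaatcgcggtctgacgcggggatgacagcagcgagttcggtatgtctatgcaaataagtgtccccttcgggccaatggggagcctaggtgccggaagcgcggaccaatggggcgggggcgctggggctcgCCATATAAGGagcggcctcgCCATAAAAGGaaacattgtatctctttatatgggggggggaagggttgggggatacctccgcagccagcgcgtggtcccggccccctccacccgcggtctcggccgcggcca
Dusp5, chr19:53528895-53529194, plus strand: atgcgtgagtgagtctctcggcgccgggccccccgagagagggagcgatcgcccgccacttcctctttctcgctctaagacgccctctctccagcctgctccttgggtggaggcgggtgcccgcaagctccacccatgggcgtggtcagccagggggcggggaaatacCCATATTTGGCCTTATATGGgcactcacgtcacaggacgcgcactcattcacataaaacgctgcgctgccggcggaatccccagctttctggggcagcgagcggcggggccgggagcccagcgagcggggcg
The match nearest to the start lies at position −53 in Zfp36, −67 in Egr2, −57 in Srf and −67 in Dusp5, and Srf and Dusp5 hold a second one. No binding was measured, and a match is a description of the letters alone. Zfp36, Egr2 and Dusp5 were named after their values were seen. Srf, which encodes the CArG box factor, had 35.7, 46.3 and 48.2 CPM untreated, against 56.0 to 80.2 CPM treated (−0.61 ± 0.11, edgeR adjusted p = 0.0064). Zfp36, an mRNA decay factor, had 4.596, 4.70 and 6.37 CPM untreated, against 10.98 to 28.7 CPM treated. Dusp5 had 5.09, 5.25 and 5.95 CPM untreated, against 9.35 to 118 CPM treated. Egr2 had 0.185, 0.199 and 0.381 CPM untreated, against 0.691 to 11.1 CPM treated. All 4 were past the threshold and their groups did not overlap. In the lists they were taken from, 12 of 19 feedback inhibitors and 18 of 25 immediate-early genes were lower. The groups did not overlap for 9 and 17 genes of these lists. Over all genes tested, 12.2% were lower and 10.9% did not overlap.

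Outside the ERK lists, untreated cells differed from treated cells in both directions. Over all genes, 1387 were higher and 1726 lower. Blocking on clone raised these counts to 3261 (23%) and 3142 (22.2%). The groups did not overlap for 1553 genes. In the naive list 5 of 20 genes were higher (10 blocked) and 5 lower (6 blocked), at a list median of 0.17. Higher were Prdm14 (57.9, 54.5 and 59.4 CPM untreated, against 6.48 to 50.8 CPM treated, 1.26 ± 0.26, edgeR adjusted p = 0.0095) and Fgf4 (0.71 ± 0.12, adjusted p = 0.00531), as well as Tbx3 and Fbxo15. Lower was Klf5 (156, 173 and 182 CPM untreated, against 181 to 399 CPM treated, −0.71 ± 0.14, edgeR adjusted p = 0.00827), as was Zfp42. In the general list 2 of 16 were higher (3 blocked), Nanog among them (0.40 ± 0.10, edgeR adjusted p = 0.0212). Another 6 were lower (10 blocked), Pou5f1 among them (−0.47 ± 0.09, edgeR adjusted p = 0.00684). Neither Nanog nor Fgf4 was higher in every untreated clone at each treated time. After 1 h Nanog stood at 665 to 853 CPM, in each clone above its untreated value (655 to 725 CPM). Later Nanog fell to 565 to 744 CPM (2 h) and 243 to 315 CPM (4 h). Fgf4 stood at 397 to 514 CPM after 1 h, below its untreated value (398 to 469 CPM) in clone a alone. Later Fgf4 ranged from 141 to 269 CPM. The calls of Nanog and Zfp42 were lost without any 1 of the 3 untreated libraries, and that of Tbx3 without b or c. Klf4 (0.41 ± 0.19, edgeR adjusted p = 0.137), Esrrb (0.05 ± 0.11, adjusted p = 0.736) and Sox2 (−0.13 ± 0.11, adjusted p = 0.399) did not pass. Tfcp2l1 passed with clone as a block alone (0.50 ± 0.25, edgeR adjusted p = 0.168, and 0.000458 blocked).

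Signalling genes also differed in both directions. Id2, a BMP target, had 33.9, 41.8 and 34.9 CPM untreated, against 9.44 to 26.5 CPM treated (1.28 ± 0.13, edgeR adjusted p = 0.00071). Bmp4, its ligand, had 16.6, 36.2 and 22.1 CPM untreated, against 35.5 to 265 CPM treated (−2.14 ± 0.37, adjusted p = 0.00587 in edgeR). The BMP targets Id1 and Id3 were lower, as was the ligand. Id1 had 9.994, 12.46 and 9.999 CPM untreated, against 18.8 to 119 CPM treated (−2.33 ± 0.32, edgeR adjusted p = 0.00227). Id3 had 4.78, 8.80 and 6.47 CPM untreated, against 14.7 to 43.8 CPM treated (−2.11 ± 0.25, edgeR adjusted p = 0.0014). Of 20 BMP and Nodal genes 2 were higher (7 blocked) and 4 lower (6 blocked), where 9.78% of all genes tested were higher and 12.2% lower. Id1 and Id3 were named after their values were seen. Epha2 had 157, 201 and 182 CPM untreated, against 405 to 946 CPM treated (−1.85 ± 0.25, edgeR adjusted p = 0.00243), and Kit 179, 212 and 232 CPM untreated, against 50.1 to 197 CPM treated (0.85 ± 0.16, edgeR adjusted p = 0.00662). Of 50 other receptor tyrosine kinases 6 were higher (16 blocked) and 4 lower (7 blocked), where 9.78% of all genes tested were higher and 12.2% lower (23% and 22.2% blocked). Of the 36 cascade genes none was higher and 7 were lower (1 and 13 blocked), with differences of −0.18 to −0.47 such as those of Araf and Rasa2, and 3, 3 and 5 of these calls were left without untreated clone a, b or c. In the LIF and STAT3 list 3 of 16 genes were lower (8 blocked), against 12.2% of all genes tested (22.2% blocked), which is also the background for the cascade and reference genes. The kinase genes Pim1 (−1.13 ± 0.19, edgeR adjusted p = 0.00491) and Pim3 (−0.85 ± 0.15, adjusted p = 0.00584) were among them, while the receptor gene Il6st was higher (0.31 ± 0.06, edgeR adjusted p = 0.00744). Reference genes differed as well, since 4 of 12 (7 blocked), Actb, Tubb5, Rplp0 and Ppia, were lower in untreated cells, with log2 differences of −0.30 (Tubb5) to −0.45 (Actb). Base composition moved with the comparison too. The fifth of genes with the lowest GC content had a median difference of 0.07 and the fifth with the highest one of −0.14, and the part of composition in these results was not tested.

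The 6 largest differences in each direction put names to the extremes. Higher in untreated cells were Nlrp9c, a NOD-like receptor of germ cells, with 6.57, 6.93 and 7.44 CPM untreated, against 0.577 to 3.31 CPM treated (2.18 ± 0.30, edgeR adjusted p = 0.00248), and Gpr139, an orphan receptor (2.17 ± 0.51). Rgma, a BMP coreceptor (1.82 ± 0.18), Rasgef1a, a RAS exchange factor (1.70 ± 0.17), Serpina3i (1.70 ± 0.54) and Kcnk3, a potassium channel (1.69 ± 0.41), completed them. All 6 averaged 3.70 to 7.05 CPM untreated. The calls of Serpina3i, Nppb and Lor were lost without any 1 untreated library, that of Gpr139 without a or c and that of Kcnk3 without a. Lower were Ccl20, a chemokine, Egr3, Cdx2, Nppb, a natriuretic peptide, Lor, an epidermal protein, and Phlda1. Ccl20 had no count in any untreated library and 18.8 CPM over the treated ones. Against a floor of 3 counts over the group, untreated cells were at least 542-fold below this pooled treated level. The pooled level rested on the later times, since Ccl20 averaged 0.214 CPM at 1 h, 5.28 CPM at 2 h and 48.6 ± 45.6 CPM at 4 h. The fold therefore does not hold for each treated time. Cdx2 had 3 untreated counts, and its ratio of pooled treated to untreated was 192 (95% interval 65.6 to 932, counting error only). It too rose with time, with means of 0.0897 CPM at 1 h, 1.84 CPM at 2 h and 17.4 CPM at 4 h. Phlda1, a target of ERK signalling, had 0.494, 0.318 and 0.381 CPM untreated, against 1.51 to 42.0 CPM treated (−4.54 ± 0.75, edgeR adjusted p = 0.00505).

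The clones were not identical before treatment. Among the 12253 genes averaging at least 1 CPM, 406 (3.31%) had a highest clone at least 2-fold over the lowest. The largest gap was in Mest, an imprinted gene expressed from the paternal copy (chr6:30723547-30748465, plus strand, GRCm38), with 74.6, 0.995 and 61.0 CPM in clones a, b and c. Clone b stayed at 0.746 to 0.848 CPM in its 3 treated libraries, while clone a was at 74.9 to 82.9 and clone c at 66.8 to 73.7 CPM. Clone b was therefore set apart at all 4 times, in counts of 25 untreated against 2418 and 1763. Of 25 imprinted genes, a list added after Mest was seen, 17 averaged at least 1 CPM. Among these 17, 1 differed by 2-fold between untreated clones, which was Mest itself. Peg10 had 69.9, 38.4 and 71.7 CPM and Impact 318, 198 and 231 CPM, with clone b lowest in both. Over the 17 imprinted genes averaging at least 1 CPM, clone a was highest for 7, clone b for 6 and clone c for 4.

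Esr1, the oestrogen receptor gene, had 9.44, 93.4 and 38.8 CPM in clones a, b and c, a 9.83-fold range. The treated libraries kept this order, at 18.1 to 18.6 CPM in clone a, 206 to 260 CPM in clone b and 39.1 to 44.4 CPM in clone c. The construct carries a domain of this receptor, and its counts and those of the endogenous gene cannot be told apart. The Y-linked helicase Ddx3y had 25.4, 66.0 and 122 CPM, whereas its X-linked relative Ddx3x had 1384, 1237 and 1195 CPM. Another Y-linked gene, Eif2s3y, had 164, 135 and 160 CPM, and so did not share the order of Ddx3y.

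A test for clone differences used all 12 libraries with time as a term and so covers differences in response too. It called 5107 genes (36%), and the 9 treated libraries alone called 5637 (40.3%). Of the 406 genes with a 2-fold range before treatment, 259 were called in those 9 libraries, which the range had not used. The same clone was highest in the treated means for 288 of the 406, or 70.9%, against 51.8% of all genes averaging at least 1 CPM. The largest called ranges after Mest and Esr1 were in Lrrc15 (7.80, 1.43 and 5.54 CPM), Ddx3y, Misp (1.60, 7.84 and 2.98 CPM) and Tusc1. Also among the 10 were Rhox5, Crispld1, Arhgap45 (2.96, 11.6 and 5.78 CPM) and Esrp1, an epithelial splicing factor (19.09, 27.0 and 7.47 CPM). For Esrp1 clone b was highest and clone c lowest, and the treated values kept that order, with 30.7 to 48.8 CPM in clone b and 6.31 to 15.8 CPM in clone c.

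**Figure D5:**
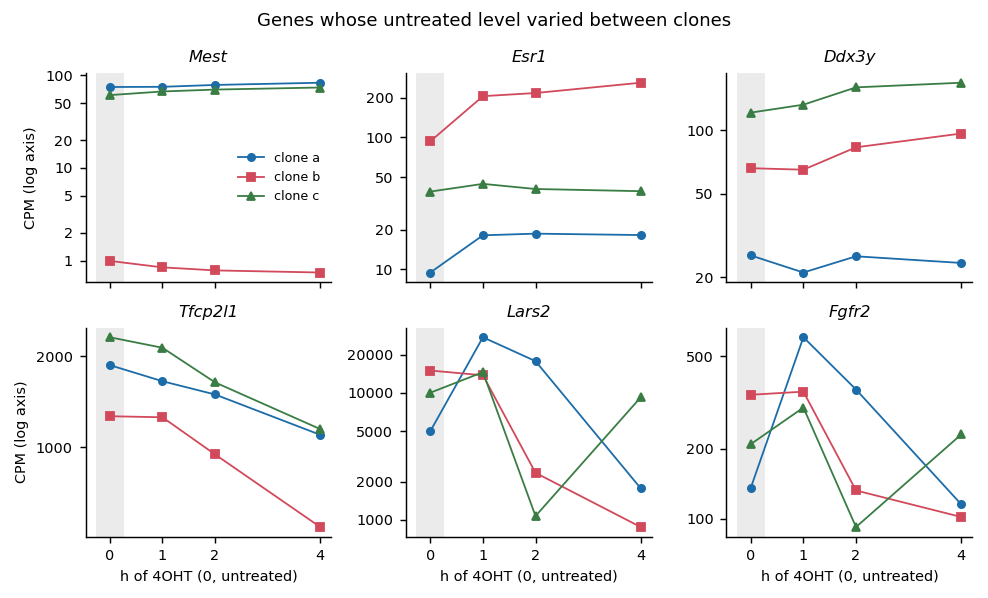
Genes whose untreated level varied between clones, in all 12 libraries. Each panel is 1 gene, with h of 4OHT on the horizontal axis, CPM on a log vertical axis and 1 line per clone; Mest, Esr1, Ddx3y and Tfcp2l1 each keep their order of clones at all times, while Lars2 and Fgfr2 change it.

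Lineage-associated genes also differed by clone. In the primitive endoderm list, 9 of the 10 genes averaging at least 1 CPM were highest in untreated clone c, against 34.8% of the 12253 genes. Of these 9 genes, 8 also passed the clone test, where 13.1% of the 12253 genes did both. Examples are Pdgfra, a receptor of that lineage (2.34, 1.47 and 4.50 CPM), Col4a1, a basement membrane collagen (52.2, 71.6 and 111 CPM), and Lama1. Clone c also had the highest level of Vim. Gata6 and Sox17 were highest in clone c too, but stayed at or under 1.25 CPM in it. Clone a was highest for the Nodal inhibitors Lefty1 (77.0, 40.8 and 38.1 CPM) and Lefty2 (200, 99.6 and 103 CPM), both past the clone test. Clone b was highest for Krt8, a simple epithelial keratin (6.94, 15.4 and 10.2 CPM), and for Bmp4. The test called 13 of the 20 naive genes, Tfcp2l1 and Dppa3 among them, and 7 of the 16 general pluripotency genes, where it called 36% of all genes tested. Nanog, Sox2, Esrrb and Klf4 did not pass.

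Chromosome medians differed little between clones. Over autosomes and X, the median log2 difference of 1 clone from the mean of the others lay between −0.12 (chromosome 4) and 0.13 (chromosome X) in clone a, between −0.08 and 0.09 in clone b and between −0.10 and 0.08 in clone c. For 7 genes of chromosome Y the medians were −0.21, 0.25 and 0.10 in clones a, b and c. Base composition moved with clone. The untreated library of clone a differed from the other clones by a median of 0.15 for the fifth of genes with the lowest GC content and −0.31 for the fifth with the highest, and that of clone c by −0.13 and 0.23. In clone b these medians were −0.02 and 0.09. For clone a they were −0.001 and −0.004 at 1 h, 0.07 and −0.12 at 2 h and −0.03 and 0.02 at 4 h. The part of GC content in the clone differences was not tested.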

How the data were processed

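The deposited file holds raw counts per gene symbol for 12 RNA libraries (rRNA-depleted RNA, per the labels' protocols), with no normalization by the authors. The submitters' processing notes name STAR, featureCounts, DESeq and mm10, without versions or roles. For the strand setting, the annotation and reads with several matches, nothing is stated there or in the labels. Ethynyl uridine is named in the labels, but no capture of labelled RNA was found there, so the counts were taken as total RNA.

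CPM were computed from the deposited counts with TMM factors in edgeR 4.0.16 (limma 3.58.1, R 4.3.3). CPM per kb divides by the merged exon length of the GENCODE annotation (GRCm38), whose positions are printed, and tables were handled with pandas 2.3.3 in Python 3.11.15 and drawn with matplotlib 3.10.9. Library totals ran between 24213641 and 31435301 counts. Genes were tested where edgeR's filter (minimum count 10, minimum total 15) kept them, which left 14185 of 25897 symbols.

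Untreated libraries were compared with the mean of the 3 treated times by edgeR's quasi-likelihood test over all 12 libraries, with Benjamini-Hochberg adjustment over all genes tested and a threshold of 0.05 (8 residual degrees of freedom). The biological coefficient of variation was 0.163. The clone test is a quasi-likelihood F test with time as a term. Clone letters in the titles pair the libraries, since the same clone is the same cell line. Deviations of same-clone libraries from their group means correlated in 18 of 18 pairs, with r of 0.184 to 0.684, so a fit with clone as a replicate block (6 residual degrees) is given beside a result where it changes a call or moves a count by over 1.5 times. DESeq2 1.42.0, limma-voom, RLE size factors, no filter and leaving out libraries were alternatives.

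Counts for 14185 genes were simulated with the same dispersion for every gene and no clone differences. On them, the test of untreated against treated recovered 56% of 1.5-fold, 96% of 2-fold and 100% of 4-fold changes with 11 false calls. The real libraries differ by clone, so these rates do not measure the power or the error of the test on them.

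The members and gene lists were chosen with earlier results of these data known. Named genes are a panel, the 8 highest per kb of each list, the 15 highest by CPM and per kb, the 10 largest clone ranges past the threshold and the 6 largest differences in each direction. Genes outside this rule are Hras, Hprt, Gapdh, Zfp36, Egr2, Dusp5, Utf1, Rasa2, Id1, Id3, Postn, Cd44 and those of the imprinted list, named after their values were seen. Some genes are not reported here. Promoter sequences are from RefSeq (GRCm38.p6).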

Additional observations from a re-analysis of the deposited data

How the results depend on the processing

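Untreated against treated cells gave 3113 genes past the threshold (5374 at an unadjusted p under 0.05). The count was 3085 with RLE size factors, 2751 without a filter, 3261 with limma-voom and 3811 with DESeq2, and 6403 with clone as a replicate block. Leaving out an untreated library or a clone at all times gave 1 to 3915, with 1228, 1199 and 1882 without untreated clone a, b and c, and 3915, 187 and 1 without clones a, b and c at all times. Fewer libraries and degrees of freedom enter all of those fits, including the fit without clone a that gave 3915. None of those fits had a term for clone. Why the counts differ by the clone left out, and why clone c weighs most, was not tested. The clone test gave 5107 genes, 4922 to 5145 under another tool, scaling or filter, 3996 to 6628 without 1 untreated library, 5637 in the 9 treated libraries and 1513 in the untreated and 1 h libraries alone, a setting added after seeing the data. Detected genes numbered 11890 and stayed between 11954 and 12253 under the alternatives. Genes 2-fold apart between clones numbered 406, 412 by total counts, 405 with RLE, 435 with a prior count of 0.5 and 182 among genes averaging at least 5 CPM. They numbered 161 to 202 between the 2 clones left when 1 was left out. The median of chromosome Y (7 genes) in clone b changed sign, at −0.26 among genes averaging at least 5 CPM against 0.25; the cause was not tested. The 3 clones with 1 untreated library each limit all statements on spread.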
